A study of Mus musculus and Homo sapiens with 32 samples.

Results

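A set of 7 imprinted protein-coding genes of the mouse, Plagl1, Peg10, Zdbf2, Peg3, Gnas, Cd81 and Gab1, were followed through every mouse file of a bulk m6A-CT experiment. The 7 genes were chosen by name, with earlier results of these data in view, from 11197 genes for which the files list at least 1 exon block. Their values are therefore a description, with no test of their own. Bulk m6A-CT places the RNA modification N6-methyladenosine (m6A) by letting an antibody guide the tagmenting enzyme Tn5 to marked RNA-cDNA hybrids in nuclei, and input libraries were made with no antibody. The genotype set came from mouse embryonic stem cells, either C57BL/6 wild-type or C57BL/6 Mettl3-/- (KO), the KO lacking, by its label, the methyltransferase Mettl3 that writes m6A. It has 8 libraries, 2 of m6A-CT and 2 of input for each genotype, and its m6A-CT libraries used an antibody from MilliporeSigma. The other mouse libraries, made with an antibody from Synaptic Systems, came from E14, also embryonic stem cells, with 100K, 25K or 5K nuclei, from expanded potential stem cells (EPSC) of the E14 line, and from CF1 mouse embryonic fibroblasts (MEF), the latter both at 100K nuclei. Whether the Mettl3 KO cells are 1 clone, and which part of Mettl3 was removed, is not given in the sources used here.

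Imprinted genes are expressed mainly or only from the copy inherited from one parent. For many of them, DNA methylation laid down in the egg or the sperm silences or opens that copy. Zinc finger proteins such as ZFP57 and ZFP445 keep these methylation marks through early development, and embryonic stem cells in culture are known to lose some of them. Plagl1, Peg10, Zdbf2 and Peg3 are expressed from the paternal copy. Gnas is a locus with several start sites whose transcripts differ in parental origin, and Cd81 and Gab1 are imprinted in the mouse placenta. m6A is often found in long exons and near stop codons and is known to mark many RNAs for decay.

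The RefSeq promoter windows of Plagl1, Zdbf2 and Peg3 are shown because Plagl1 and Zdbf2 had some of the lowest ratios of Mettl3 KO to wild-type input of all genes, while Peg3, also paternally expressed, did not. Peg10, with a ratio between theirs, has no window here, so the windows do not cover all 3 genes of low ratio. Each window runs from 250 bases before to 50 after an annotated start on GRCm38.p6, 5′ to 3′ on the strand of the gene. Capitals mark TGCCGC or its reverse complement GCGGCA, the core of the motif that ZFP57 binds when it is methylated.
Plagl1, chr10:13090582-13090881, plus strand: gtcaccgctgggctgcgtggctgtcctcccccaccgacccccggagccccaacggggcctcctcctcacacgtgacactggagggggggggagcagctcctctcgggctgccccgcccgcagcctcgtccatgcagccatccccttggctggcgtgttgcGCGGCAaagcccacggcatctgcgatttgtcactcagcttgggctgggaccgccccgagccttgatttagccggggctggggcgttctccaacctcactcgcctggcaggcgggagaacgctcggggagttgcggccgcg
Zdbf2, upstream start, chr1:63200108-63200407, plus strand: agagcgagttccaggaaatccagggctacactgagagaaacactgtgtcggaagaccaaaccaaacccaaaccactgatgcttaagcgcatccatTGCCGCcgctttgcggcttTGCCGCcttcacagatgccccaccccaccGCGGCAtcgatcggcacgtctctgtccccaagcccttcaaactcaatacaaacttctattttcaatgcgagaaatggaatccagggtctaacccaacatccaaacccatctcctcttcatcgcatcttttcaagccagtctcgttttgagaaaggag
Zdbf2, downstream start, chr1:63273019-63273318, plus strand: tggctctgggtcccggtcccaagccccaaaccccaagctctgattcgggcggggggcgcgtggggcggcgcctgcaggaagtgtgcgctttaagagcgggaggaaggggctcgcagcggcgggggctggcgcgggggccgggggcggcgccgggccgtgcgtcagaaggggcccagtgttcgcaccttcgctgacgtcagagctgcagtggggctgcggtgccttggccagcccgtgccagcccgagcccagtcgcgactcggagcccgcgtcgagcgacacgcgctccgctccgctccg
Peg3, chr7:6730370-6730669, minus strand: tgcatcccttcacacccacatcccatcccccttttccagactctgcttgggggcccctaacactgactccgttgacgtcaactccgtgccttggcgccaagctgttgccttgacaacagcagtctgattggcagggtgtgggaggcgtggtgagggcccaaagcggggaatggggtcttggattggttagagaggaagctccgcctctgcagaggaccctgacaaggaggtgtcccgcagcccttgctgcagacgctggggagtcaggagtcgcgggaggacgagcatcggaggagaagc
Counted on both strands, the motif stood 1 time in the Plagl1 window and 3 times in the upstream Zdbf2 window. It was not found in the downstream Zdbf2 window or in that of Peg3. The windows of Gnas, Cd81 and Gab1, not shown, held none either, although input of Cd81 and Gab1 was also lower in Mettl3 KO. A link between the motif and the input ratios was not tested. Of all 32851 RefSeq windows of 300 bases, 11.6% held the motif at least once and 0.234% held it 3 times or more. CpG dinucleotides numbered 26 in the Plagl1 window, 15 and 38 in the Zdbf2 windows and 13 in that of Peg3, against a median of 7 over all windows. A match describes these letters and is not a measured binding site.

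Depth could be read only from the genotype table, whose RPM values (reads scaled to a common library total) are whole multiples of 1 read. The pooled m6A-CT columns held 39310394 reads (wild-type) and 37532658 reads (Mettl3 KO), and the pooled input columns 45090626 and 51031598. At most 63.5% of the m6A-CT reads and 23.6% of the input reads lay outside Lars2 and Rn45s, the latter the ribosomal RNA precursor. Values that set the genotypes side by side are therefore also given with these genes taken out of the totals where that matters. No value per replicate was available for analysis, so no replicate error can be given, and every 95% interval covers counting error alone, with PCR reads that carry no molecular identifier taken as independent. Mettl3 itself had 1.71 RPM of input in wild-type and 2.47 RPM in the KO at chr14:52919391-52919765, so this region does not show the loss that the label states; whether it lies in the deleted part is not known here, and if it lies outside it checks nothing. Mettl3 KO below means the libraries labelled so. Of 12 naive pluripotency markers, 10 had a peak in E14 at 100K, 8 in EPSC and 5 in MEF, whereas fibroblast markers had a peak in 3 of the 4 with a position in MEF and in none elsewhere; Col1a1, Col1a2, Col3a1, Postn, Lox and Thy1 had no position. In every E14 list and in EPSC, Pou5f1 and Dppa5a had no peak. Nanog and Tfcp2l1 also had none in EPSC, Esrrb and Lifr none in E14 at 25K, and Lifr none at 5K.

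The genotype table lists 20 regions of the 7 genes, between 25 and 11925 bp long and with 198 to 9387 reads. These are 6 for Cd81, 4 for Gnas, 3 each for Zdbf2 and Gab1, 2 for Plagl1 and 1 each for Peg10 and Peg3. Of 33395 regions with an FDR in the table, 33391 are under 0.05, so a part of a gene that did not change has, with few exceptions, no row.

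Input RNA of 3 paternally expressed genes was far lower in Mettl3 KO. Plagl1 encodes a zinc finger transcription factor that restrains cell proliferation. Its most-read region, mm9 chr10:12846949-12851498, had 27.7 RPM of input in wild-type against 1.69 RPM in Mettl3 KO. That is 16.4-fold lower (95% counting interval 13.2 to 20.5), on 1249 and 86 reads. The shorter upstream region, chr10:12844676-12844950, was 11.8-fold lower (7.44 to 18.6), at 4.61 and 0.392 RPM. Both Plagl1 regions were thus lower, with overlapping intervals.

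Peg10 derives from a retrotransposon and encodes Gag-like and Pol-like proteins needed for the placenta. Input of its single listed region, chr6:4704126-4710516, was 12.4 RPM in wild-type against 1.63 RPM in Mettl3 KO, or 7.61-fold lower (6.04 to 9.58). Zdbf2 encodes a DBF-type zinc finger protein known to affect growth after birth. Input of its long block, chr1:63349222-63361146, was 17.6 RPM in wild-type against 3.51 RPM in Mettl3 KO, or 5.01-fold lower (4.26 to 5.89). The upstream Zdbf2 regions at chr1:63324519-63324543 and chr1:63341504-63341603 were 3.06-fold (1.48 to 6.31) and 4.03-fold (2.32 to 7.02) lower, on as few as 10 and 16 reads in Mettl3 KO.

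Among 6955 genes whose most-read region had at least 200 reads, 1 gene had a lower Mettl3 KO to wild-type input ratio than Plagl1, 8 had a lower one than Peg10 and 23 a lower one than Zdbf2. Over the same genes, 0.719% were more than 4-fold lower, and 3 of the 7 imprinted genes were. The median gene had an input log2 ratio of -0.11. In bulk libraries, fewer cells that express a gene and less RNA per cell cannot be told apart. The naive pluripotency markers were lower too, by much less: all 11 with a listed region had a negative input log2 ratio, from -1.76 for Tfcp2l1 to -0.14 for Esrrb, with a median of -0.62. None of the 11 was more than 4-fold lower, and their summed level was 670 RPM in wild-type against 443 RPM in Mettl3 KO. Of 5 trophoblast and extraembryonic endoderm markers with a region, 4 were lower, from -1.14 for Lama1 to 0.64 for Gata6, with summed levels of 18.3 and 15.2 RPM. Of 4 fibroblast markers 1 was lower, with a range from -1.06 for Vim to 3.73 for Fbn1, a median of 1.06 and summed levels of 3.39 and 2.51 RPM. Of 6 endothelial, blood and epithelial markers 3 were lower, from -1.06 for Grhl2 to 2.63 for Cdh5, with a median of 0.35 and summed levels of 8.41 and 5.39 RPM. The part of these differences in the result was not tested.

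Peg3, a paternally expressed gene of Kruppel-type zinc fingers, did not share this pattern. Its input over 9 listed blocks, chr7:6658671-6683130, was 13.2 RPM in wild-type against 16.8 RPM in Mettl3 KO, a ratio of 1.27 (1.15 to 1.41). Gnas, which encodes the stimulatory G protein alpha subunit, was also not lower. Input of its most-read region, chr2:174167323-174167422, was 8.21 RPM in wild-type against 9.52 RPM in Mettl3 KO, a ratio of 1.16, and the 4 Gnas regions ranged from 0.936 to 1.19.

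Cd81 and Gab1 lay between these groups. Cd81 encodes a tetraspanin of the cell surface, and its region at the 3′ end, chr7:150253218-150253835, had 14.2 RPM of input in wild-type against 6.19 RPM in Mettl3 KO. All 6 Cd81 regions were lower by a like factor, from 2.14 to 2.49. Gab1 encodes a docking protein of receptor tyrosine kinase signalling. Its 3′ region, chr8:83288330-83290379, had 15.8 and 10.8 RPM, 1.47-fold lower (1.31 to 1.64), and the other Gab1 regions were 1.71-fold lower. With Lars2 and Rn45s out of the totals every input log2 ratio is higher by the same constant, which gave Plagl1 at -3.73, Peg10 at -2.61, Zdbf2 at -2.01, Cd81 at -0.89, Gab1 at -0.24, Gnas at 0.53 and Peg3 at 0.66, with the direction of each unchanged.

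**Figure D1:**
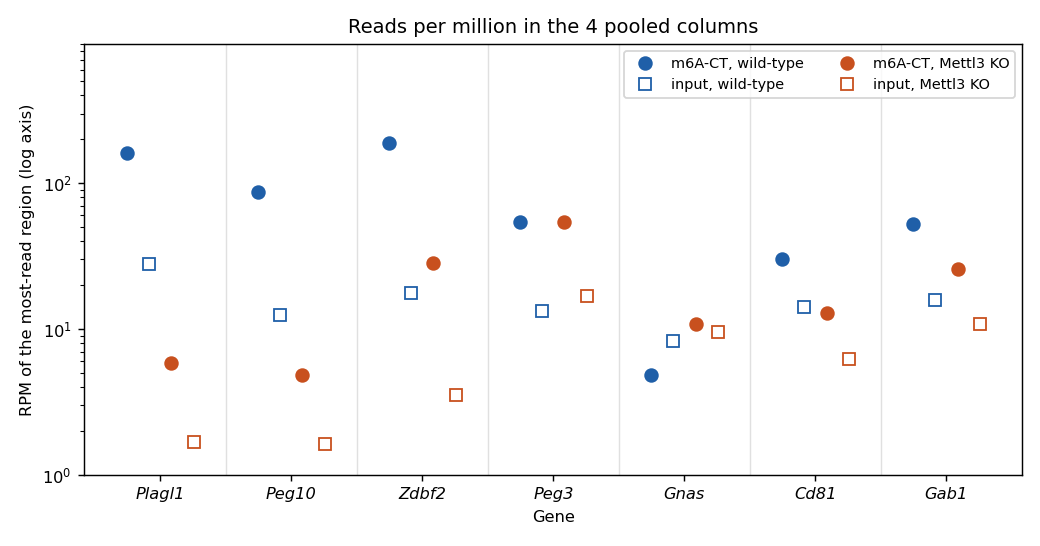
RPM of the most-read region of each gene (log axis) in the 4 pooled columns, with m6A-CT as filled circles and input as open squares, wild-type in blue and Mettl3 KO in orange. For Plagl1, Peg10 and Zdbf2 each Mettl3 KO point lies far below the wild-type point of the same library kind, whereas m6A-CT of Peg3 is level at 54.4 and 54.0 RPM.

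Per kilobase, wild-type input of the most-read region was highest for Gnas, at 82.1 RPM per kb, then Cd81 (23.0), Gab1 (7.72), Plagl1 (6.09), Peg3 (1.99), Peg10 (1.94) and Zdbf2 (1.47). This order runs nearly against region length, from 100 bp for Gnas to 11925 bp for Zdbf2. Short regions of the same gene were also denser, with 24.0 RPM per kb in the 25 bp region of Zdbf2 and 56.3 in the 100 bp region of Gab1. The order is therefore not a ranking of expression, as level and region length cannot be told apart. The place of Cd81 turns on which region stands for it, as its most-read region leads the next by 2625 to 2624 reads and 4 of its other regions had 153 to 208 RPM per kb. Peg3 and Peg10 stand next to each other on 595 and 558 reads, and no spread over samples is known for any step of this order. In Mettl3 KO, Plagl1, Peg10 and Zdbf2 were the lowest of the 7, at 0.370, 0.254 and 0.294 RPM per kb.

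Enrichment of m6A-CT over input is the ratio of the 2 RPM values, and a value above 1 means that the antibody libraries hold a larger share of the reads than input. In wild-type it was 10.7 for the long Zdbf2 block (95% counting interval 9.90 to 11.5), from 187 RPM in m6A-CT over 17.6 RPM of input. Peg10 was at 7.08 (6.47 to 7.74), from 87.6 over 12.4 RPM. Plagl1 was at 5.80 (5.46 to 6.17), from 161 over 27.7 RPM. These intervals do not overlap one another.

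Peg3 followed at 4.12 (3.76 to 4.51), from 54.4 over 13.2 RPM, and the 3′ region of Gab1 at 3.30 (3.03 to 3.60), from 52.3 over 15.8 RPM. The 3′ region of Cd81 was at 2.11 (1.92 to 2.32), from 30.0 over 14.2 RPM. Gnas stood apart, with ratios of 0.386 to 0.586 in its 4 regions, the lowest of the 7 genes. In all, 16 of the 20 regions were above 1 in wild-type, against 91.9% of all regions, and the 4 exceptions belonged to Gnas. The side of 1 depends on the totals: with Lars2 and Rn45s left out, 7 of the 20 regions were above 1, against 61.7% of all regions, and the exceptions took in every Cd81 region (0.783 at its 3′ region), the upstream Plagl1 region and the upstream pair of Gab1. The median over 6955 genes was 3.57.

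Along the transcript, the region nearest the 3′ end had the highest wild-type ratio in each of the 5 genes with several listed regions. Cd81 went from 1.02 at its first region to 1.27, then 1.67, 1.68 and 1.64, and 2.11 at the last. Gab1 was at 1.69 and 1.55 upstream and 3.30 at its 3′ region, and Plagl1 at 1.70 and 5.80. Zdbf2 was at 6.16 and 5.47 in its short upstream regions and 10.7 in the long block, and Gnas at 0.386, 0.495, 0.499 and 0.586. In Mettl3 KO the same held for 4 of the 5, all but Gnas, against 61.4% of genes. Among 5271 genes with several regions of at least 50 reads, 61.0% had their highest wild-type ratio in the region nearest the 3′ end and 50.7% in the longest one. In these 5 genes the last region is also the longest, so position and length cannot be told apart here. No mm9 annotation was used, so the regions were not assigned to coding sequence or untranslated parts.

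In Mettl3 KO the ratio was lower for most genes, with a median of 2.23 over 6955 genes against 3.57 in wild-type. Peg3 was at 3.22 (2.97 to 3.48) and the 3′ region of Gab1 at 2.39 (2.15 to 2.65), each below its wild-type interval. For the 3 genes whose input was lowest the ratio was lower too, but it stayed above 1 in the most-read region of each, also with Lars2 and Rn45s left out. The long Zdbf2 block was at 8.04 (6.86 to 9.42), from 28.2 RPM in m6A-CT over 3.51 RPM of input. Plagl1 was at 3.48 (2.71 to 4.46), from 5.86 over 1.69 RPM, and Peg10 at 2.98 (2.30 to 3.87), from 4.85 over 1.63 RPM. The Mettl3 KO interval of Zdbf2 lies above that of wild-type Plagl1 and overlaps that of wild-type Peg10.

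The upstream Plagl1 region went from 1.70 to 0.476 (0.201 to 1.13), on 7 m6A-CT reads in Mettl3 KO. The other 19 regions were above 1 in Mettl3 KO, against 81.3% of all regions. With Lars2 and Rn45s out of the totals 4 of the 20 regions were above 1, against 37.8% of all regions, namely the most-read regions of Zdbf2, Plagl1, Peg3 and Peg10.

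**Figure D2:**
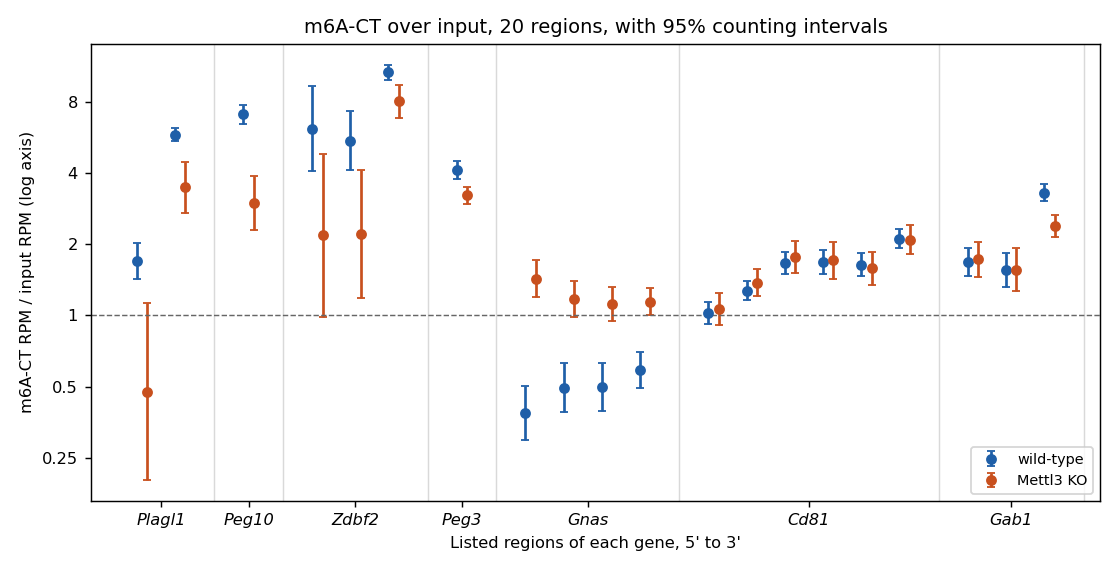
Ratio of m6A-CT RPM to input RPM (log axis) in the 20 listed regions, ordered 5′ to 3′ within each gene, in wild-type (blue) and Mettl3 KO (orange), with 95% counting intervals and a dashed line at 1. The genotypes overlap throughout Cd81, Gnas is below 1 in wild-type alone (in both genotypes with Lars2 and Rn45s out of the totals), and in Zdbf2, Plagl1, Cd81 and Gab1 the last wild-type point is the highest.

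The authors' exomePeak2 comparison asks whether m6A-CT over input changed in Mettl3 KO. Of the 20 regions, 16 fell and 4 were higher at FDR under 0.05 in the authors' deposited table, against 89.0% and 11.0% of all regions, and the 4 higher ones were those of Gnas. Peg10 had a log2 fold change of -1.76 (FDR 2.43e-16) in the authors' deposited table. Plagl1 was at -1.25 in its long region (FDR 1.27e-09) and at -2.35 upstream (FDR 0.00251) in the authors' deposited table. The long block of Zdbf2 was at -0.84 (FDR 2.19e-09) in the authors' deposited table, and its upstream regions at -1.89 and -1.63. Peg3 was at -0.88 (FDR 6.3e-21) and the 3′ region of Gab1 at -0.95 (FDR 7.32e-20), also in the authors' deposited table. The median log2 fold change in the authors' deposited table was -0.52 over these 20 regions and -1.35 over all regions.

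At the median region the deposited log2 fold change is 0.50 lower than the plain ratio of RPM ratios, and the direction of 4 Cd81 regions and 2 Gab1 regions differs between the scales. On the plain RPM scale Peg10 changed by -1.25 (95% counting interval -1.64 to -0.85), Plagl1 by -0.74 (-1.11 to -0.37), Zdbf2 by -0.41 (-0.66 to -0.16), Gab1 by -0.47 (-0.66 to -0.27) and Peg3 by -0.36 (-0.53 to -0.18). The median over the most-read regions of 6955 genes was -0.66. Peg3 thus fell by less than the median gene. The Plagl1 and Gab1 intervals hold that median, and the Zdbf2 interval ends almost at it. With Lars2 and Rn45s out of the totals every value and interval is higher by 0.17. That gave Peg10 at -1.08, Plagl1 at -0.57, Zdbf2 at -0.24, Gab1 at -0.30 and Peg3 at -0.19, and the Zdbf2 interval then holds 0. With the full totals, 8 of the 20 regions had an interval below 0, 4 had one above 0 and 8 had one that held 0. On this scale 10 regions were lower, against 86.8% of all regions, and with Lars2 and Rn45s out of the totals 8 were lower, against 82.7%.

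Cd81 fell by 0.37 to 0.55 in its 6 regions in the authors' deposited table, with FDR from 0.000272 to 0.0226. By RPM its 6 values lay between -0.05 and 0.11, each with an interval that holds 0. Its m6A-CT reads, 30.0 RPM in wild-type against 12.9 RPM in Mettl3 KO at the 3′ region, were lower by 2.32-fold and its input by 2.30-fold. The ratio there was 2.11 in the wild-type columns and 2.09 in the KO columns. The upstream Gab1 regions likewise fell by 0.47 and 0.50 in the authors' deposited table and were at 0.03 and 0.01 by RPM.

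Gnas was higher in all 4 regions, by 1.36, 0.72, 0.64 and 0.44 from 5′ to 3′ in the authors' deposited table. By RPM these were 1.89 (1.43 to 2.35), 1.24, 1.16 and 0.96 (0.65 to 1.28). At the first region, chr2:174159721-174159770, m6A-CT went from 1.88 to 6.53 RPM while input was 4.88 and 4.57 RPM. Its ratio went from 0.386 to 1.43 (1.19 to 1.71), and the other 3 regions reached 1.11 to 1.17. The wild-type and Mettl3 KO intervals do not overlap in any Gnas region, and in Mettl3 KO those of the middle pair of regions hold 1. With Lars2 and Rn45s out of the totals the Gnas ratios were 0.143 to 0.217 in wild-type and 0.465 to 0.596 in Mettl3 KO, below 1 in both.

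**Figure D3:**
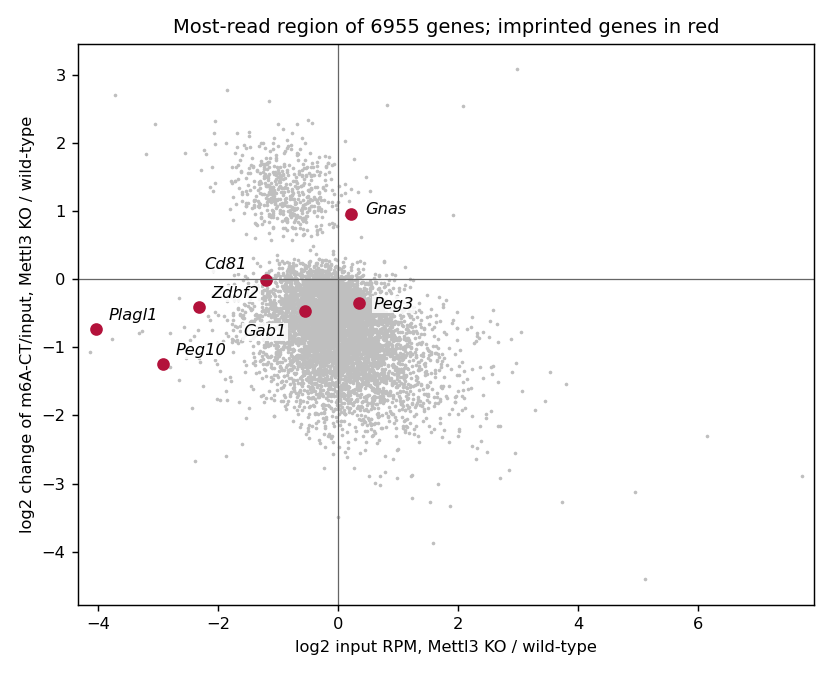
For 6955 genes (grey), the log2 ratio of input RPM in Mettl3 KO over wild-type (x) against the log2 change of m6A-CT over input on the RPM scale (y) in the most-read region, with the 7 imprinted genes in red. Plagl1, Peg10 and Zdbf2 lie at the far left with negative changes, Gnas lies at 0.96, and few genes fall in the band between the upper and lower clouds. Nearly all listed regions are ones the authors called changed, so regions with little change are missing from the plot. Input enters both axes, with opposite sign.

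The 4 RPM values of each gene, taken as log2 and centred on their mean, were compared with those of 6954 genes by Euclidean distance. Nearest to Plagl1 were Lncenc1 (0.31), a long noncoding RNA of stem cells, and Eppk1 (0.33). Nearest to Peg10 were Chst3 (0.23) and Paqr8 (0.36), and to Zdbf2 they were Zfp971 (0.27) and Col18a1 (0.37). Peg3 was close to Hk1 (0.07) and Med27 (0.08), Gnas to Mtch1 (0.16) and Hist1h2af (0.19), Cd81 to Insig1 (0.13) and Sdc4 (0.14), and Gab1 to Cenpo (0.03) and Wipi2 (0.04). The distance rests on 4 pooled columns, and none of the 7 genes was among the nearest pair of another.

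The authors' MeTPeak lists, called once per genotype, give peaks over exon blocks with a fold of m6A-CT over input that is not on the RPM scale. Of the 7 genes, 6 had a peak in wild-type and 5 in Mettl3 KO, where 52.1% and 41.4% of all genes did. Plagl1 had 1 wild-type peak at chr10:12849455-12851301 with a fold of 36, and Peg10 had 1 at chr6:4704597-4710168 with a fold of 23.7 that covers 5572 bp. Neither had a peak in Mettl3 KO. There their most-read regions had only 86 and 83 input reads, at RPM ratios of 3.48 and 2.98 against a median of 2.23 over 6955 genes. The part of low RNA in the missing peaks was not tested. Gnas did the reverse of these 2 genes, with no wild-type peak and 3 in Mettl3 KO at folds of 1.63 to 2.92.

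Zdbf2 had peaks in both genotypes, in shorter pieces in Mettl3 KO. In wild-type a peak of fold 40.7, chr1:63341577-63355758, covered 6589 bp of exon in 2 blocks, with a further peak of fold 13.7 at chr1:63357555-63357805. In Mettl3 KO the gene had 9 peaks with folds from 3.50 to 7, of which 8 lay within the span of the long wild-type peak and 1, at chr1:63357505-63357855, covered the smaller one. Together they covered 4650 bp against 6840 bp in wild-type, and 97.8% of their bases lay in wild-type peaks.

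Peg3 had 5 peaks in wild-type with folds of 2.25 to 10.7 and 4 in Mettl3 KO with folds of 3.40 to 5.50, covering 4787 and 5780 bp. Gab1 had 2 peaks (9.08 at most) and 3 peaks (5.46 at most), and Cd81 had 1 in each genotype, at 4.75 and 3.42. In all 4 genes with peaks in both genotypes the highest fold was the wild-type one, against 76.7% of all such genes. By median fold this held for 3 of the 4, as Peg3 was at 4 in wild-type and 4.49 in Mettl3 KO. Antisense transcripts share bases with 2 of the genes. Peg3os overlaps 817 bp of Peg3 at chr7:6659519-6660335 and has its own listed peaks there, with folds of 12 and 7.67. Reads there cannot be told apart if the libraries do not keep strand, which is not given in the sources used here.

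The 5 MACS2 lists, which carry no strand, show where these transcripts had peaks in other cells. A peak overlapping the exon blocks by at least 1 bp was found for 6 of the 7 genes in E14 at 100K, 5 at 25K, 3 at 5K, 5 in EPSC and 3 in MEF. The shares of all 11197 genes were 18.9%, 9.93%, 14.9%, 27.2% and 39.7%. With 1 list per condition there is no error on these counts, and the lists differ in length, from 3923 peaks for E14 at 25K to 38205 for MEF. Fold values are the authors' own and describe a peak only within its list.

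Peg10 was marked in every stem cell list, with 3, 4 and 3 peaks in E14 at 100K, 25K and 5K and 4 in EPSC, and had no peak in MEF. Its highest folds were 7.73, 5.22 and 4.64 in E14 and 9.72 in EPSC. Each of these 4 lists had a peak towards the 3′ end that began at nearly the same base of chromosome 6, at 4709187 in E14 at 100K, 4709191 at 25K, 4709240 at 5K and 4709182 in EPSC. The E14 list at 100K covered 74.5% of the wild-type MeTPeak bases of Peg10, and the EPSC list 76.7%.

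Zdbf2 had 5 peaks in E14 at 100K, 4 in EPSC and none in MEF, with 2 at 25K and 1 of 100 bp at 5K. In EPSC a single peak of 6968 bp, chr1:63349204-63356171, spanned much the same stretch as the long wild-type MeTPeak peak of C57BL/6 cells, and the EPSC peaks covered 99.2% of that gene's wild-type peak bases. The smaller downstream site was met by a peak in E14 at 100K (chr1:63357435-63357889, 6.78-fold) and in EPSC (chr1:63357611-63357885, 13.1-fold). That site is thus listed in both genotypes of the C57BL/6 cells, in E14 at 100K and in EPSC, but not in E14 at 25K or 5K. Its MeTPeak peak had a log10 FDR of only -1.66 in wild-type, against -2.45 in Mettl3 KO.

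Plagl1 had 2 peaks in each E14 list, at up to 13.9-fold at 100K, 4.82-fold at 25K and 3.03-fold at 5K. It had 1 in MEF at chr10:12849441-12850650 (6.70-fold) and none in EPSC. The bases of the wild-type MeTPeak peak covered by these lists were 100%, 80.3%, 44.7% and 64.8%. Input levels of these cells were not analysed here, so a gene with no peak may carry no m6A or have little RNA, and these cannot be told apart.

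Peg3 had the most peaks in MEF. It had 8 there, 1 of them 7789 bp long at chr7:6656919-6664707 (5.82-fold) that covered the whole long block and ran past its listed end, against 1 peak of 362 bp in E14 at 100K, 3 peaks in EPSC and none at 25K or 5K. The other 7 MEF peaks, 145 to 255 bp long, shared 84 to 161 bp each with the upstream blocks. E14, EPSC and MEF shared a site near chr7:6662239-6662600. With every list shortened to its 3923 best peaks by q, the long MEF peak of Peg3 remained, while EPSC and E14 had none.

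**Figure D4:**
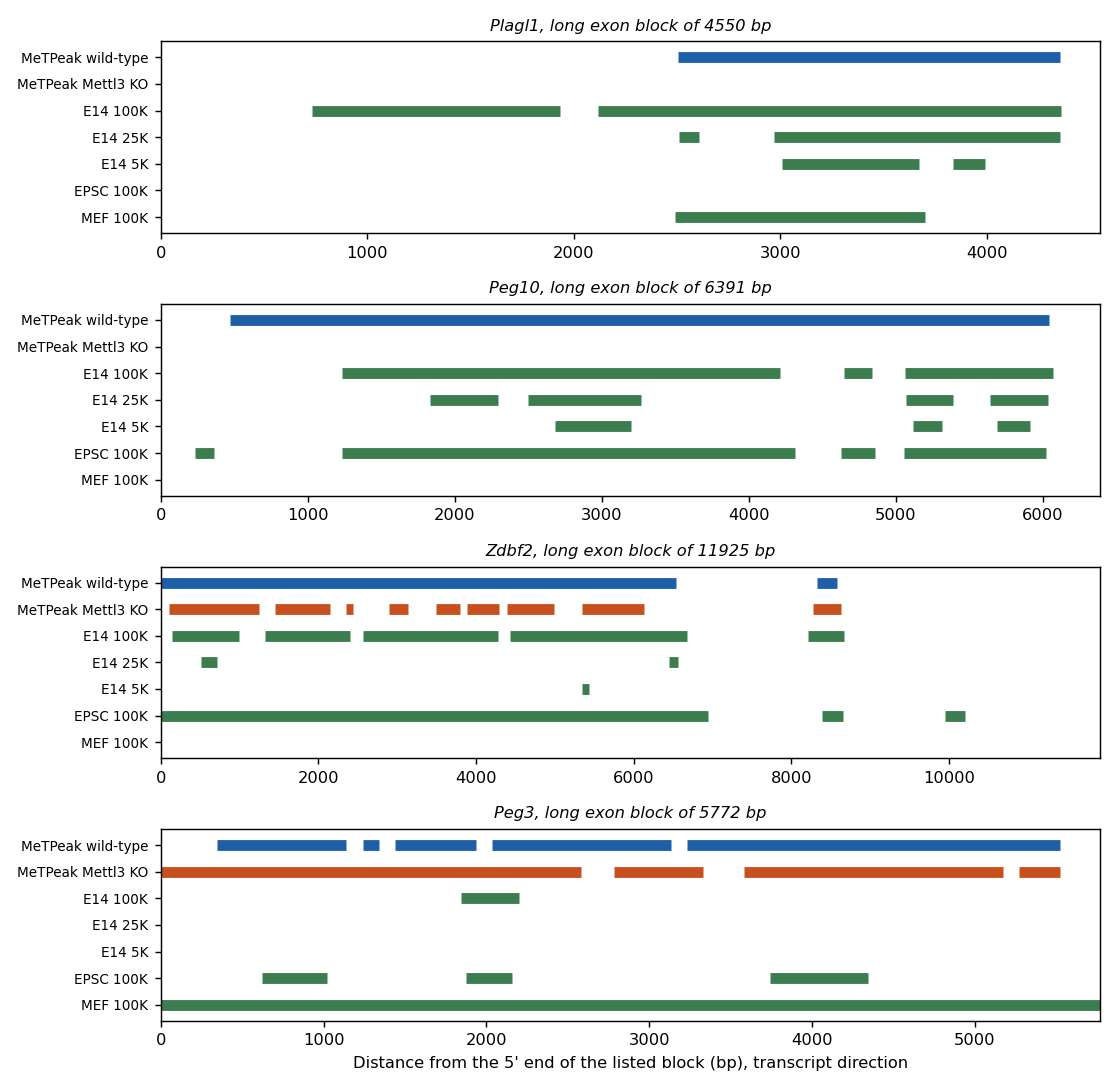
Peaks along the longest listed block of Plagl1, Peg10, Zdbf2 and Peg3, by distance in bp from its 5′ end in the direction of transcription, in the MeTPeak lists of wild-type (blue) and Mettl3 KO (orange) and the 5 MACS2 lists (green). The broken row of Mettl3 KO peaks in Zdbf2 lies under the wild-type peak, and the MEF peak of Peg3 fills its block of 5772 bp.

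Gab1 had single peaks that differed in place, at the 3′ region in E14 at 100K (chr8:83289460-83289672, 2.91-fold), at the 5′-most block at 25K (chr8:83324025-83324295, 4.82-fold) and inside the gene in EPSC (chr8:83312392-83312922, 1.89-fold). MEF had 2, of which chr8:83312370-83312989 met the EPSC peak. Cd81 had none in any of the 5 lists, although both MeTPeak lists hold a Cd81 peak. The peaks counted for Gnas need care. In E14 at 100K (chr2:174108988-174110156, 12.0-fold), at 25K and in EPSC they shared only 91, 148 and 39 bp with Gnas blocks. All 3 overlap a wild-type MeTPeak peak of the antisense RNA Nespas at chr2:174108889-174110092, and 1 of the Mettl3 KO peaks of Gnas, chr2:174109971-174110216, overlaps it too. With at least 50% of the peak required inside the blocks, Gnas had no peak in any list. From the first to the last block with introns included, it had 2 peaks in E14 at 5K and 1 in each other list. Genes with a peak then numbered 4 rather than 3 in E14 at 5K and in MEF.

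Other genes of the pathway were taken from a list of 83 further imprinted genes, of which 44 could be placed. The genotype table held 129 regions in 39 of them. Of these 129 regions, 112 fell and 17 were higher in the authors' deposited table, near the 89.0% and 11.0% of all regions, with a median of -1.25 against -1.35 over all regions. Among genes with at least 50 reads, the largest changes in the authors' deposited table were those of Herc3 (3.72, from 62 reads), Ascl2 (-3.45, from 55 reads), Peg12 (-3.06), Atp10a (-3.05, from 131 reads), the deiodinase gene Dio3 (-2.63) and Tssc4 (-2.55). That of Herc3 rests on 3 wild-type m6A-CT reads and that of Atp10a on 2 wild-type input reads. For Dio3, m6A-CT went from 10.5 to 5.17 RPM while input went from 1.91 to 4.21 RPM. Tssc4 behaved alike, with m6A-CT of 12.1 and 6.10 RPM over input of 2.68 and 5.72 RPM.

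Of 21 other imprinted genes with at least 200 reads, 5 had more than 2-fold lower input in Mettl3 KO, against 8.57% of all genes, and 5 had more than 2-fold higher input, against 6.34% of all genes. The lower ones, named after their values were seen, were Xist (4.86-fold), Meg3 (4.38), Impact (4.26), Zrsr1 (2.60) and Jade1 (2.57). The higher ones, likewise named afterwards, were Phlda2 (0.355 RPM in wild-type, 4.23 RPM in Mettl3 KO), Dio3 (1.91 and 4.21 RPM), Ndn (0.976 and 2.16 RPM), Igf2r (2.75 and 6.04 RPM) and Tssc4 (2.68 and 5.72 RPM). Of the noncoding imprinted RNAs, Rian had 1 wild-type MeTPeak peak of fold 42.7 and 5 Mettl3 KO peaks of 3.50 at most, and Kcnq1ot1 had none in wild-type and 83 in Mettl3 KO of 8.50 at most.

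Factors that keep or remove imprints were also listed, with 88 regions in 15 genes, of which 62 fell and 26 were higher in the authors' deposited table, against 89.0% and 11.0% of all regions, at a median of -0.67 against -1.35. On the plain RPM scale 54 of the 88 were lower, against 86.8% of all regions. Among them Tet2 (-1.90), Zfp445 (-1.77), Zfp57 (-1.44), Eed (-1.34), Tet1 (-1.10) and Dnmt3a (-1.07) had the largest changes in the authors' deposited table. Each of these fell, and the choice depends on the scale. By RPM they ran from -1.42 for Tet2 to -0.56 for Dnmt3a, whereas the most-read regions of Dnmt1 and Dnmt3b were higher, by 1.18 and 1.33. Input of Tet1 was 51.7 RPM in wild-type against 23.3 RPM in Mettl3 KO, that of Tet2 33.0 and 17.7 RPM and that of Zfp57 31.3 and 16.1 RPM. Zfp445 had 6.61 and 6.39 RPM, Eed 0.843 and 0.647 RPM and Dnmt3a 0.688 and 1.59 RPM. No value of DNA methylation was analysed here, and the part of these factors in the input levels was not tested.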

How the data were processed

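Bulk m6A-CT and input libraries, 2 per group by the labels, were analysed from the deposited lists. Trim Galore, STAR 2.7.2, MACS2 and the builds mm9 and hg19 are named in the submitters' processing notes, and MeTPeak and exomePeak2 in the sample descriptions; settings and the pooling of replicates are not given in the sources used here. The deposited MACS2 lists give a fold enrichment ratio and -log10 q, at least 10 throughout. The deposited MeTPeak lists give a fold ratio and log10 FDR. The deposited exomePeak2 table gives RPM per genotype and library kind, a log2 fold change, a p-value and an FDR, per the file headers.

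RPM values were turned into reads, whole to within 0.01 reads in 99.994% to 100% of values per column. Ratios, differences and Wald 95% counting intervals were computed from reads, with 0.5 reads added where a column had 0. A counting test on the reads of the pooled libraries, which compares those libraries and not the conditions, called 22357 of 33473 regions at an adjusted p under 0.05, against 33391 called by the authors. On Poisson reads simulated around the observed ones, it recovered 71% of 200 regions lowered 4-fold and called 0.009% of the others. That simulation held no variation between replicates or from PCR, so it cannot show how the test does with them. Blocks of the 3 genotype files placed 11197 genes on mm9; peaks were matched at 1 bp of overlap without strand. Starts are 1-based. RefSeq tables of GRCm38.p6 gave synonyms and promoter sequences, with 6 of 7 genes matched.

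All 7 genes, the lists and the rules were chosen with earlier results of these data known. The rule names every region and peak of the 7 genes, Mettl3, up to 6 genes per list with the largest absolute log2 fold change at FDR under 0.05 and at least 50 reads, Rian and Kcnq1ot1, and the 2 nearest genes by pattern. Python 3.11.15, numpy 2.4.6, pandas 2.3.3 and scipy 1.17.1 were used. Alternatives of scale, threshold, filter and overlap are given in the closing section.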

Additional observations from a re-analysis of the deposited data

How the results depend on the processing

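The count of regions lower in Mettl3 KO, 16 of 20, became 10 on the RPM scale, 8 with Lars2 and Rn45s out of the totals, 8 by the counting test and 9 at FDR 0.01. The count of higher regions, 4, became 10, 12 and 2 on the RPM scale, with those genes out and at FDR 0.01. The regions that switched sides between scales were those of Cd81 (4 by RPM, 6 with Lars2 and Rn45s out) and the upstream 2 of Gab1. Cd81 turned to 0.15 with Lars2 and Rn45s left out and to 0.028 with its reads summed. The number of genes above 1 became 5 rather than 6 in wild-type and 4 rather than 7 in Mettl3 KO with them left out. With -log10 q of at least 20, genes with a peak in E14 at 25K went from 5 to 3, and with lists of equal length those in EPSC went from 5 to 3 and those in MEF from 3 to 1. Higher regions of the other imprinted genes, 17, became 26 with those genes out and 10 with at least 50 reads. Of 91 alternative values computed, 49 stayed within their margin, 40 moved beyond it and 2 turned in sign. Leaving out a replicate could not be run on pooled columns. No paired analysis was possible because the columns carry no replicate. Depth limits the upstream Plagl1 and Zdbf2 regions most, which had 7 to 26 m6A-CT reads in Mettl3 KO.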
